A study of Mus musculus with 16 samples.

Results

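The epithelial score is a value per cell that the authors built from the cytokeratins, Epcam and Sfn and used, with aneuploidy and low or undetected Ptprc, to tell the malignant cells of B78 melanoma tumors from the other cells around them. The score was above 0 in 71603 of 163343 cells (43.8%), and all of these cells are described here, together with the cells at 0 wherever a share is given. They came from 15 annotated classes and 39 numbered clusters, 11 of which made up the 61317 cancer cells. B78 is a melanoma line of the mouse. Its cells were grafted subcutaneously into male C57/BL6 mice (8 to 11 weeks old), and each of 16 tumors gave 1 droplet-based 3′ RNA library. There were 7 control tumors from unedited cells (WT), 3 tumors of genotype mt.11944 60%, 3 of mt.12436 60% and 3 of mt.12436 80%. The mutant cells carried a premature stop in mt-Nd5, a mitochondrial gene for a central part of complex I of the respiratory chain, introduced by base editing, and the percentage is the share of mitochondrial genomes so edited. Each mutant group came from cells edited beforehand and grafted into several mice, so its tumors do not sample the variation among separate editing experiments. Because the authors used the score to assign the malignant cells, its level in cancer cells against other classes, and in one cluster against another, is given below as a description with no test.

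Cytokeratins are the intermediate filament proteins of epithelial cells and assemble as pairs of a type I and a type II chain, such as Krt18 with Krt8 in simple epithelia. Epcam encodes a cell adhesion molecule of the epithelial surface, and Sfn encodes 14-3-3 sigma, an epithelial adaptor protein that is induced by p53 and can hold cells at the G2 checkpoint. Melanoma cells descend from melanocytes of the neural crest and not from an epithelium, though melanomas are known to make simple-epithelium keratins at times. In the GRCm39 assembly with GENCODE annotation, Epcam is at chromosome 17, positions 87943407 to 87958557 on the plus strand, and Sfn at chromosome 4, positions 133327867 to 133329479 on the minus strand. The annotation holds 54 cytokeratin genes, 27 on chromosome 11, with type I chains, and 27 on chromosome 15, with the type II chains and Krt18. Which of them entered the score is not given in the sources used here. The deposited table has the score of each cell and no values of single genes, so no level of any named gene is reported.

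The deposited values nevertheless gave back the UMIs behind them. A UMI (unique molecular identifier) stands for a captured RNA molecule. Every positive score equalled a sum, over the score genes detected in that cell, of log2(1 + 100000 × UMIs of the gene / UMIs of the cell), and this held for 71603 of 71603 positive cells to within 1e-09. The methods of the study call the score an average, whereas the values are this sum. A single combination of UMI counts was found for 71588 cells, and for the other 15 the combination with the fewest UMIs was kept. The positive cells held 469074 UMIs of score genes (score UMIs) among 1202078256 UMIs of all cells. A single UMI made up the whole score of 26478 positive cells (37.0%). A single gene was detected in 53.0% of positive cells, 2 genes in 40.9%, 3 genes in 5.94%, 4 genes in 91 cells and 5 genes in 1 cell. The score is thus carried by few genes in any cell. The cell with the most score UMIs held 200 of them among 25999 UMIs and had a score of 16.7, below the highest score of 21.3, which came from 84 score UMIs in a cell of 14464.

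Some libraries stood apart before any comparison. Cells per tumor ranged from 6371 to 13448, UMIs per tumor from 54652952 to 131121046 and median UMIs per cell from 3130.5 to 7527.5. The first tumor of mt.11944 60% had the deepest cancer cells (median 23118.5 UMIs) and the highest share above 0 in 8 of 14 classes, whereas WT 2 had the most score UMIs per 100000 UMIs in 10 of 14 classes. The table names a batch for each tumor: WT 1 to 3 with mt.11944 60%, WT 4, 5 and 7 with mt.12436 60%, and WT 6 with mt.12436 80%. Comparisons with WT could therefore also be made within batches, whereas the 60% and 80% tumors share no batch. Across libraries 3278 barcodes recurred, in 6591 cells, of which 43.1% were above 0. The libraries were made from live cells sorted from digested tumors, in which UMIs can also come from free RNA, so shares in cell types that should lack these genes are given beside those of cancer cells.

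The score moved with depth. In cancer cells the share above 0 rose from 52.7% in the lowest depth decile (median 4143 UMIs) to 96.7% in the highest (median 28756.5), and in monocytes and macrophages from 11.9% (median 1125 UMIs) to 32.9% (median 8773 UMIs). The level of positive cells went opposite ways in these classes. The median positive score of cancer cells rose from 5.65 to 8.60 between those deciles, while that of monocytes and macrophages fell from 6.51 to 3.73. The latter values lie near the score of a single UMI, which is 6.66 in a cell of 1000 UMIs, 4.39 at 5000 and 2.12 at 30000. Measured as score UMIs per 100000 UMIs, cancer cells rose from 33.2 to 61.1 over the same deciles and monocytes and macrophages fell from 11.97 to 4.58. To set cells of unlike depth side by side, each cell was also thinned to 2000 UMIs, and the expected share of cells that would still hold a score UMI was taken, without cells under 2000 UMIs. The thinned share rose from 38.3% to 54.6% over the deciles of cancer cells, so the deeper cancer cells also held more score UMIs at equal depth. These deciles pool cells over tumors and differ in cell cycle calls. The G1 phase was called in 74.3% of cancer cells in the lowest decile and 31.5% in the highest. The part of phase in this rise was not tested.

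**Figure D1:**
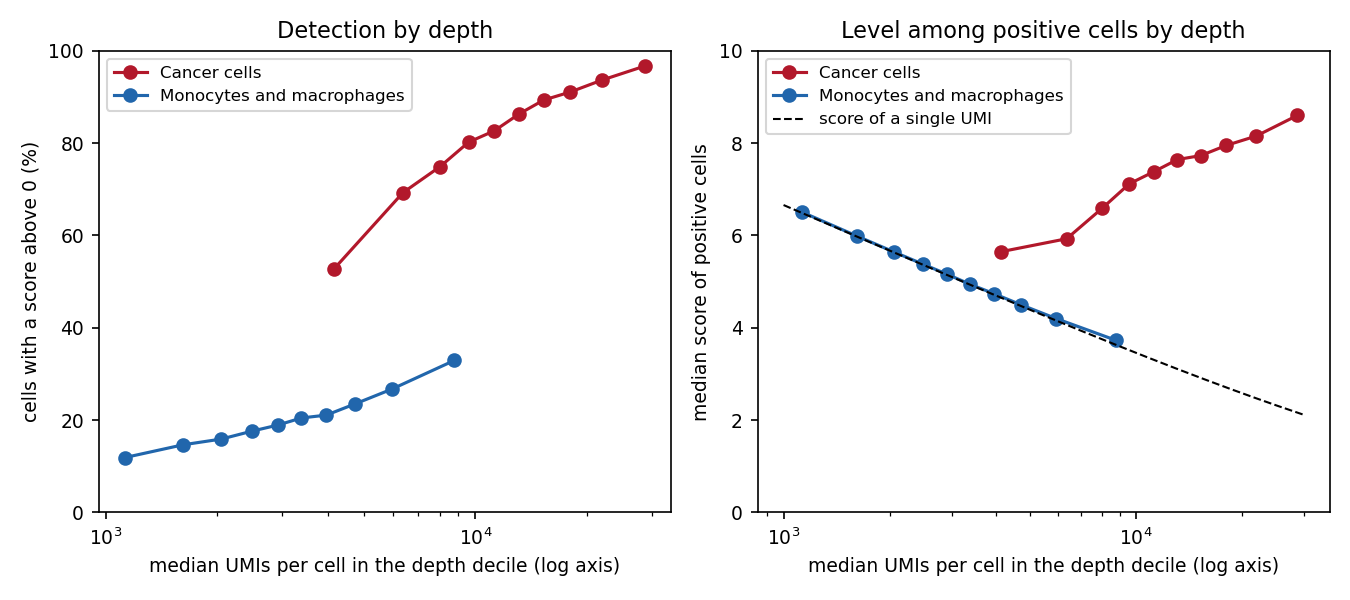
Left, cells with a score above 0 (%), and right, the median score of the positive cells, against the median UMIs per cell (log axis) in deciles of cells by depth, for cancer cells (red) and for monocytes and macrophages (blue), with the score of a single UMI dashed. Detection rose with depth in both, from 52.7% to 96.7% and from 11.9% to 32.9%, while the level of positive cells rose in cancer cells and followed the score of 1 UMI in monocytes and macrophages.

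Among the classes, cancer cells had the highest share above 0 and the most score UMIs per 100000 UMIs, and fibroblast-labelled and erythroid-labelled cells came next. The 1134 erythroid-labelled cells were unevenly spread, with 2 to 652 per tumor, so their pooled values rest largely on 1 tumor. Of all score UMIs, 93.1% were in cancer cells. The score was above 0 in 81.7% of cancer cells, 44.1% of fibroblast-labelled cells and 39.2% of erythroid-labelled cells. In the remaining classes it was above 0 in 12.6% (neutrophils) to 25.7% (endothelial cells), apart from 31.8% of the 22 basophils. Over the 16 tumors the share in cancer cells had a lowest value of 70.1%, a median of 83.5% and a highest of 92.0%, and that of fibroblast-labelled cells 34.7%, 48.9% and 63.0%. In macrophages, phagocytes of the blood lineage that should lack these genes, the share was between 11.2% and 40.9% with a median of 17.5%, and in monocytes between 12.3% and 40.5% with a median of 17.6%. Median depth differed as well, with 12165 UMIs in cancer cells and 3833 in macrophages. The share in cancer cells was above that in macrophages in 16 of 16 tumors, and the ranges over tumors of these classes did not overlap.

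The order of the classes changed with the measure. As score UMIs per 100000 UMIs, cancer cells had 51.9, erythroid-labelled cells 30.5, fibroblast-labelled cells 30.0, the 22 basophils 16.01, mast cells 14.8, B cells 10.9, CD4 T cells 10.5, endothelial cells 10.1, dendritic cells (DC) 9.46, neutrophils 8.87, monocytes 7.74, T cells 6.49, NK cells 5.86, CD8 T cells 5.77 and macrophages 5.08. Neutrophils, lowest by share, were therefore not lowest by rate, and their median depth of 1372 UMIs was the lowest of the classes. The median ratio of cancer cells to the class within a tumor was 10.5 for macrophages, 9.97 for CD8 T cells, 7.16 for monocytes, 4.99 for DC and 1.75 for fibroblast-labelled cells. The thinned share was higher in cancer cells than in fibroblast-labelled cells in 16 of 16 tumors and higher than in erythroid-labelled cells in 13 of 15, in mast cells in 11 of 14 and in B cells in 15 of 16, and it was lower than in basophils in the only tumor with enough of them. Among neighbours in the order, the medians over tumors of B cells, CD4 T cells, DC and neutrophils were 12.2, 9.88, 9.56 and 9.56 score UMIs per 100000 UMIs, and the SD over tumors was 7.33, 11.6, 2.62 and 6.03. These neighbours differed by less than their spread. B cells had 5 to 78 cells per tumor, and their 95% intervals (Clopper-Pearson, counting error only) reached 51.6 percentage points to a side, against 1.75 in cancer cells and 2.62 in macrophages.

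**Figure D2:**
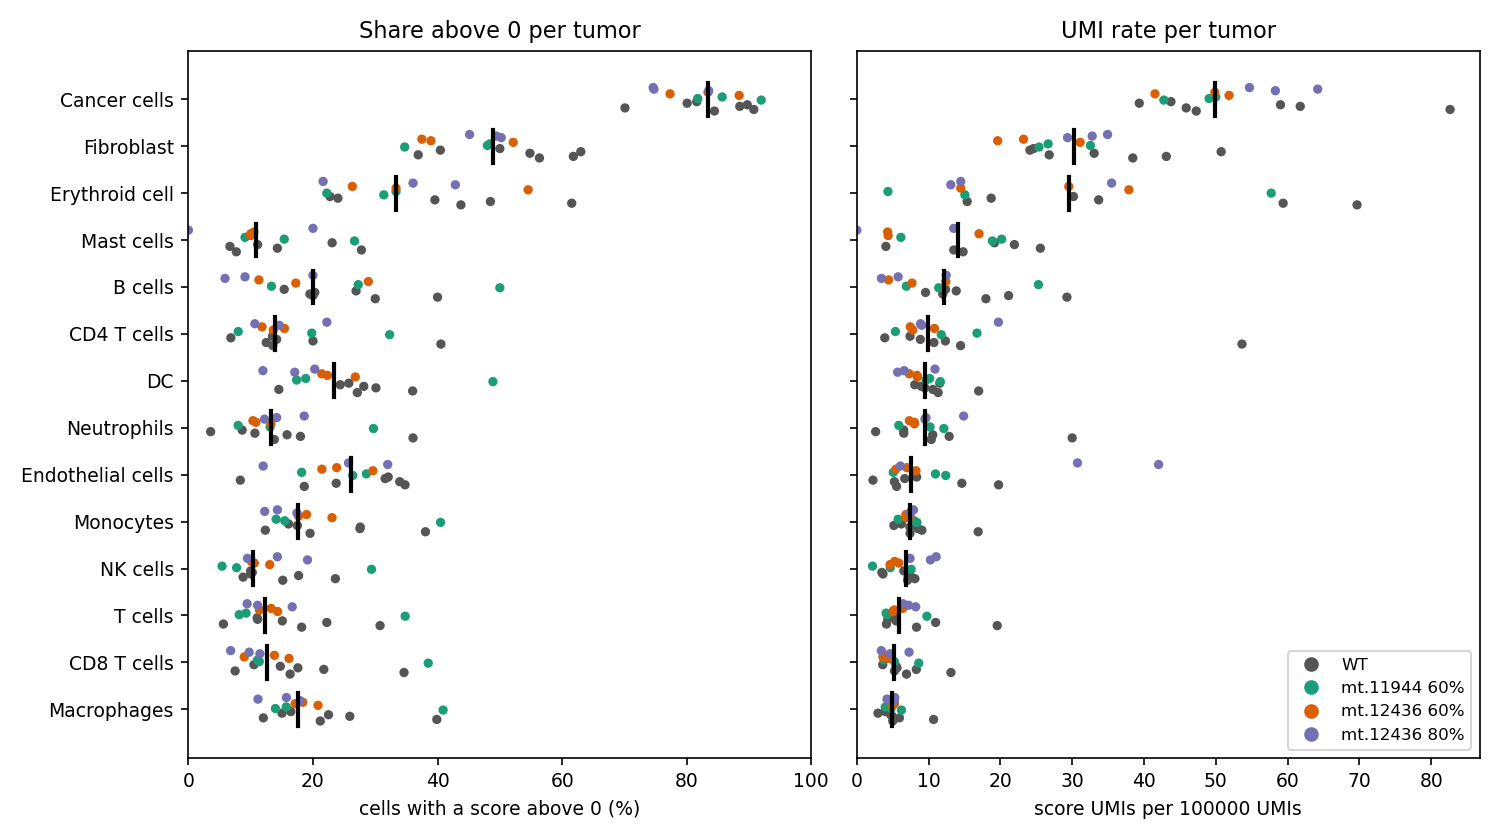
Cells with a score above 0 (%, left) and score UMIs per 100000 UMIs (right) in each annotated class, a point per tumor with at least 5 cells of the class, colored by group, with the median over tumors as a bar. Cancer cells lie highest in both, at medians of 83.5% and 49.9, and fibroblast-labelled and erythroid-labelled cells lie between them and the immune classes.

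At matched depth cancer cells were still highest, but the order below them depended on the depth. Among cells of 2000 to 4000 UMIs, 48.0% of cancer cells, 43.6% of erythroid-labelled and 42.8% of fibroblast-labelled cells were above 0, against 23.8% of B cells, 22.99% of DC, 20.1% of monocytes, 16.1% of macrophages and 12.6% of NK cells. Among cells of 5000 to 10000 UMIs the share was 73.6% in cancer cells, 58.2% in fibroblast-labelled cells, 35% in erythroid-labelled cells, 32.7% in monocytes and 24.8% in macrophages. Erythroid-labelled cells thus lay beside cancer and fibroblast-labelled cells in the shallower window and beside monocytes in the deeper one. In positive cells the make-up differed too: a single UMI was the whole score in 19.2% of positive cancer cells, 49.3% of fibroblast-labelled and 84.8% of macrophages. Cells with 10 or more score UMIs made up 22.6% of cancer cells, 2.79% of fibroblast-labelled and 2.20% of erythroid-labelled cells. In macrophages they made up 0.00357%, with 10 score UMIs as the most in a macrophage.

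Within the fibroblast and DC labels the score differed between clusters. Fibroblast cluster 15 had 46.5 score UMIs per 100000 UMIs, close to the 51.9 of cancer cells, at a median depth of 1287 UMIs, and cluster 23 had 9.79 at a median of 6099. The rate was higher in cluster 15 in 16 of 16 tumors. DC cluster 19 had a thinned share of 19.8%, against 8.99% in cluster 29 and 7.78% in cluster 32, and its rate was above that of cluster 29 in 14 of 16 tumors and above that of cluster 32 in 15 of 16. Since clusters rest on all genes of the cells, these orders are a description.

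The 11 cancer clusters spanned a wider range than the cancer cells of the 16 tumors, whose thinned shares were 37.1% to 58.3%. After thinning, 70.9% of cells of cluster 11 held a score UMI, 69.8% of cluster 13, 58.7% of cluster 16, 54.7% of cluster 14, 46.0% of cluster 10, 45.9% of cluster 12, 45.1% of cluster 27, 40.2% of cluster 9, 36.9% of cluster 2, 35.2% of cluster 28 and 22.0% of cluster 8. Cluster 8 was lowest in 15 of 16 tumors, and cluster 11 (9 tumors) or cluster 13 (7 tumors) was highest in every tumor. Cluster 11 was above cluster 16 in 16 of 16 tumors, cluster 13 above cluster 16 in 12 of 16, and cluster 16 above cluster 14 in 15 of 16. Clusters 10, 12 and 27 followed each other within less than their SD over tumors (5.71, 5.20 and 6.54 percentage points). Cluster 11 held 9.55% of cancer cells and 23.2% of their score UMIs, and cluster 8 held 13.7% of cancer cells and 3.58%.

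**Figure D3:**
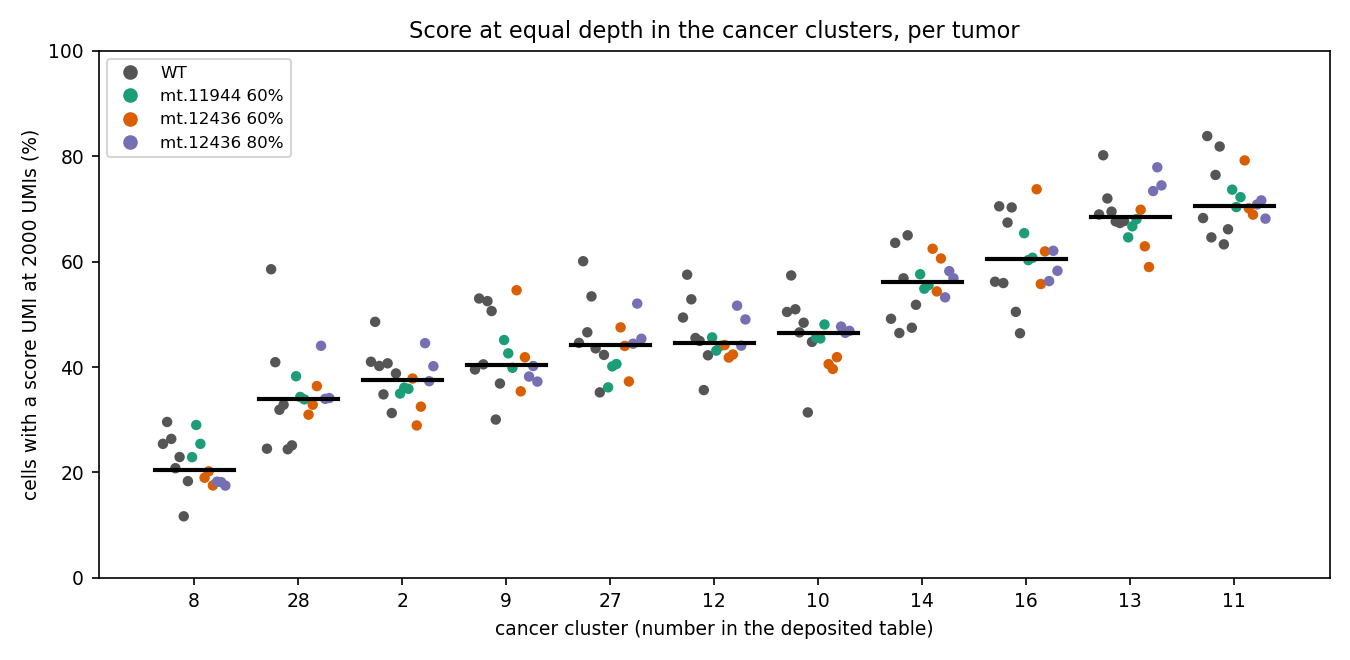
Expected share of cells with a score UMI after thinning to 2000 UMIs (%) in each of the 11 cancer clusters, ordered by their median, a point per tumor colored by group and the median over tumors as a bar. The clusters run from cluster 8, lowest in 15 of 16 tumors, to clusters 13 and 11, while the groups overlap within clusters.

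Unthinned, the share above 0 ran from 57.7% in cluster 8 to 96.2% in cluster 11, and the rate from 16.003 to 99.7 score UMIs per 100000 UMIs. The order did not follow depth: cluster 8 had a median of 10565.5 UMIs and cluster 13, with a rate of 90.2, one of 11829. Cluster 8 cells were still above macrophages, with 16.003 against 5.08 score UMIs per 100000 UMIs and a thinned share of 22.0% against 9.71%. Cell cycle calls were unevenly spread over the clusters. In clusters 14, 16 and 27 at most 0.367% of cells were called G1 and in cluster 11 11.8%, whereas in clusters 8, 2, 28, 12, 10, 13 and 9 between 72.5% and 93.1% were.

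By phase, cancer cells called S or G2M, the phases of DNA synthesis and of growth and division after it, had more score UMIs than cancer cells called G1. Over the 16 tumors the share above 0 in G1 cells had a lowest value of 63.3%, a median of 77.9% and a highest of 92.3%, in S cells 76.0%, 90.1% and 94.5%, and in G2M cells 84.8%, 92.9% and 96.3%. The groups of values overlapped, yet S was above G1 in 15 of 16 tumors, and so was G2M. The difference within tumors was 11.4 percentage points for S (95% interval 8.32 to 14.4) and 13.7 for G2M (9.93 to 17.3), each with an adjusted p = 7e-05 by an exact sign-flip permutation test over tumors, adjusted over 16 tests. After thinning the share was 40.05% ± 4.90 (SD, n = 16 tumors) in G1, 56.2% ± 4.74 in S and 58.2% ± 5.73 in G2M, with both higher than G1 in 16 of 16 tumors (adjusted p = 4.4e-05 for each, exact sign-flip permutation). These differences were 16.2 (14.4 to 18.0) and 18.2 (16.1 to 20.3) percentage points. Per 100000 UMIs, G1 cells had 40.8 ± 9.82 score UMIs, S cells 68.0 ± 13.4 and G2M cells 68.0 ± 15.02.

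Inside clusters the differences were smaller in size, but phase calls and clusters largely coincide. A cluster entered only in tumors where it held at least 5 cells of both phases. Clusters 14 and 27 held 0% G1 cells and could not enter, and cluster 16 held 16 G1 cells over all tumors. Cluster and phase can therefore not be told apart by these values. When S was set against G1 inside each cluster of each tumor, the thinned difference was 2.87 percentage points (1.799 to 3.95, higher in 15 of 16 tumors, exact sign-flip p = 6.1e-05), and for G2M it was 4.94 (2.74 to 7.20, higher in 14 of 16, p = 0.000275). The unthinned share was 2.63 points higher in S (0.893 to 4.41, exact sign-flip permutation p = 0.0051), and in G2M it was lower than in G1 by 3.16 points (difference −3.16, interval −6.07 to −0.33, p = 0.0279), the other way from the difference over all cells. Score UMIs per 100000 UMIs inside clusters differed by −0.48 between S and G1 (−3.16 to 2.21, p = 0.704) and by 7.00 between G2M and G1 (1.68 to 13.2, p = 0.00546), all by exact sign-flip permutation. In cluster 8 the thinned share was 21.3% in G1, 28.3% in S and 28.2% in G2M, and in cluster 2 36.8%, 37.9% and 39.2%. In cluster 11 the order was the opposite for S, with 80.9% in the few G1 cells, 67.9% in S and 80.3% in G2M. In monocytes the thinned share was 13.7% in G1, 14.1% in S and 14.7% in G2M, and in macrophages 10.3%, 8.61% and 9.27%. In fibroblast-labelled cells they were 17.9% in G1, 44.6% in S and 45.1% in G2M. In their cluster 15, 14.9% of cells were called G1, and in cluster 23 76.5%.

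Ploidy calls, which CopyKAT makes from the expression of neighbouring genes along chromosomes, were set beside the score as well. Since the score and these calls both served to assign malignant cells, neither the cells labelled as cancer nor those left in other classes were chosen independently of them, and the values by ploidy are a description with no test. In fibroblast-labelled cells the share above 0 over tumors was between 50.5% and 94.4% with a median of 69.1% in aneuploid cells, and between 17.9% and 56.7% with a median of 32.7% in diploid cells. Aneuploid cells were higher in 16 of 16 tumors, by 35.1 percentage points on average. Median depth differed in the same direction, with 6496 UMIs in aneuploid and 1201 in diploid cells. After thinning the shares were 42.0% ± 7.05 and 19.8% ± 10.2 (SD, n = 16 tumors), a difference of 22.2 points, with aneuploid cells higher in 16 of 16 tumors. The aneuploid value is near the 46.1% ± 4.78 of cancer cells. Inside clusters the thinned difference was 12.01 points, higher in 11 of 16 tumors. Thinning kept 409 of 3190 diploid cells of cluster 15 and 1058 of 1266 diploid cells of cluster 23. Of aneuploid cells it kept 1341 of 1438 in cluster 15 and 371 of 389 in cluster 23. Over all fibroblast-labelled cells it thus set mainly aneuploid cells of cluster 15 against diploid cells of cluster 23. Pooled over tumors, the thinned shares of aneuploid and diploid cells were 47.4% and 47.9% in cluster 15 and 19.2% and 11.7% in cluster 23. In cluster 15, pooled over tumors, aneuploid and diploid cells had 46.4 and 46.9 score UMIs per 100000 UMIs, and in cluster 23 they had 18.8 and 6.55. The rate inside clusters was 7.11 higher in aneuploid cells on average, and higher in 11 of 16 tumors.

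Cancer cells were called aneuploid in nearly all cases, 60311 against 1006 diploid. The share above 0 was 83.6% ± 6.71 in aneuploid and 46.0% ± 16.4 in diploid cancer cells (SD, n = 16 tumors), higher in 16 of 16 tumors. Their median depths were 12322 and 2315 UMIs. After thinning the difference was 5.70 percentage points, with aneuploid cells higher in 12 of 16 tumors, and inside clusters it was 0.893, higher in 7 of 14. In score UMIs per 100000 UMIs aneuploid cells were higher in 13 of 16 tumors, by 14.7 on average. Among erythroid-labelled cells, 89.0% of 163 aneuploid cells (median 14185 UMIs) and 30.8% of 971 diploid cells (median 2124 UMIs) were above 0, and the thinned shares were 45.9% and 25.6%. In macrophages the 125 aneuploid and 27879 diploid cells had thinned shares of 5.33% and 9.73%.

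**Figure D4:**
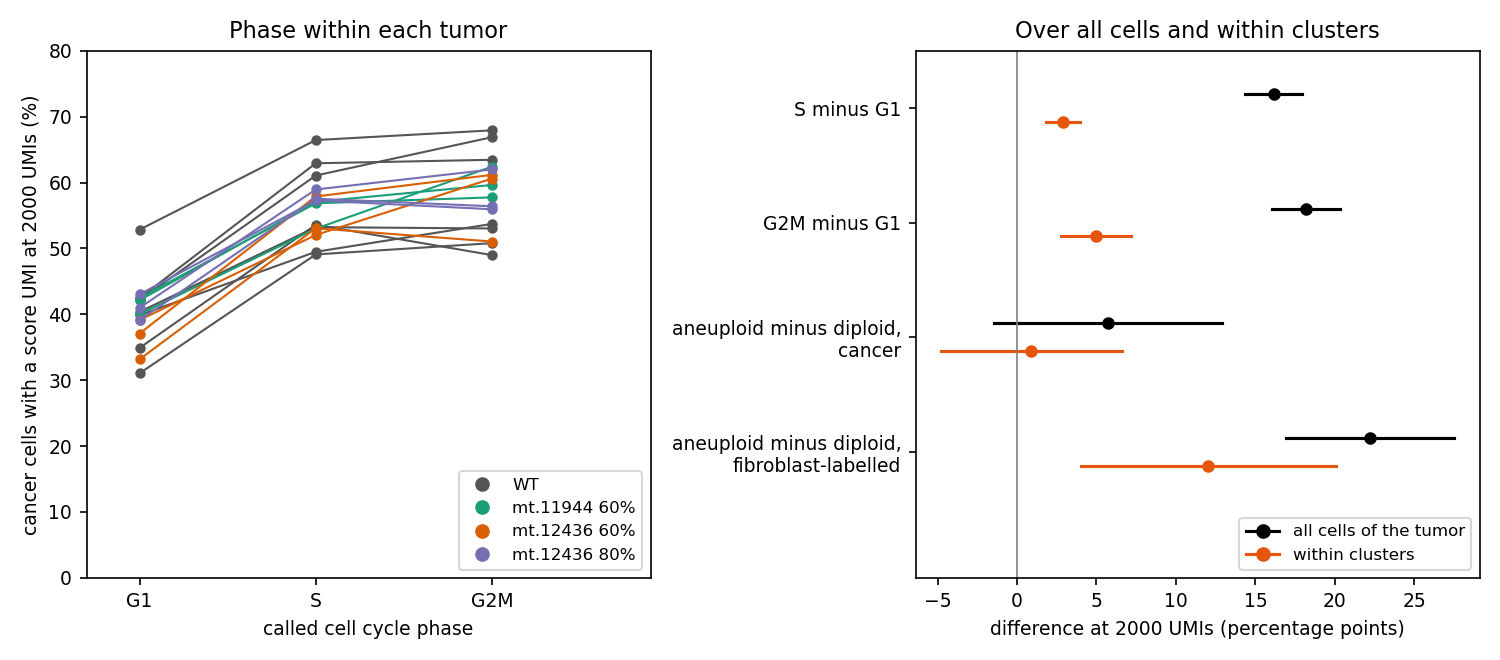
Left, thinned share of cancer cells with a score UMI (%) by called phase, a line per tumor colored by group, rising from 40.05% in G1 to 56.2% in S on average. Right, mean differences over tumors at 2000 UMIs (percentage points, with 95% intervals of that mean) for all cells of a tumor (black) and inside clusters (orange), where the S minus G1 difference was 2.87 in place of 16.2.

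The tumor groups were compared to ask whether the score of the cancer cells went with the edit. In WT the share of cancer cells above 0 had a lowest value of 70.1%, a median of 84.4% and a highest of 90.8%. It was 92.0%, 81.8% and 85.7% in the tumors of mt.11944 60%, 88.4%, 77.3% and 83.4% in mt.12436 60%, and 83.5%, 74.7% and 74.6% in mt.12436 80%. All mutant groups overlapped with WT. The mean over mutant tumors was 82.4% ± 5.98 (SD, n = 9) and over WT tumors 83.6% ± 7.22 (n = 7), a difference of −1.22 percentage points (95% interval −8.20 to 5.92, exact permutation p = 0.716). Within batches the difference was −0.0306 (exact permutation p = 0.994). The 60% tumors differed from WT by 1.16 points (−6.41 to 9.17, exact permutation p = 0.758) and the 80% tumors by −5.97 (−16.1 to 4.66, p = 0.225). Without WT 3, the WT tumor with the shallowest cancer cells and the lowest share, the 80% tumors were 8.23 points lower (difference −8.23, exact permutation p = 0.0476 before adjustment). Leaving out any other single tumor, 9 in all, gave differences of −8.92 to −4.46 (exact permutation p = 0.167 to 0.472). With all tumors, the 80% tumors differed from WT by −2.44 points within their batch, which has 1 WT tumor. After thinning they differed by 1.34 points, and by rate by 4.82 score UMIs per 100000 UMIs. The median depth of cancer cells averaged 10553 UMIs over the 80% tumors and 14953.7 over WT tumors. The part of depth in the lower share was not tested. Between mt.12436 60% and mt.11944 60% the difference was −3.42 (exact permutation p = 0.5, where 3 against 3 tumors cannot give less than 0.1). The mean score of cancer cells was 6.16 ± 0.567 in mutant and 6.58 ± 0.998 in WT tumors, a difference of −0.42 (−1.27 to 0.42, exact permutation p = 0.314). Without WT 2 it was −0.15 (exact permutation p = 0.674).

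Between 80% and 60% tumors the share and the rate went opposite ways. The share above 0 was lower at 80%, 77.6% ± 5.11 (n = 3) against 84.8% ± 5.14 (n = 6), a difference of −7.13 points (−16.6 to 1.77, exact permutation p = 0.0952). The rate was higher, 59.0 ± 4.80 against 47.5 ± 4.27 score UMIs per 100000 UMIs, a difference of 11.5 (3.31 to 19.9) with an exact permutation p = 0.0119, the smallest that 84 splits allow, and an adjusted p = 0.139 over 35 tests. The tumors did not overlap: 58.3, 64.2 and 54.7 at 80% were all above the 41.5 to 51.8 at 60%. Cancer cells of mt.12436 80% had median depths of 13839, 8538 and 9282 UMIs, against 8789 to 23118.5 in the 60% tumors. The doses share no batch, and the 60% tumors hold both edits while the 80% tumors hold mt.12436 alone, so dose, batch and edit cannot be told apart. Among mt.12436 tumors only, a comparison added after the data were seen, the rate was 59.0 ± 4.80 at 80% and 47.7 ± 5.47 at 60% (n = 3 each, difference 11.3) and the share above 0 differed by −5.42 points (exact permutation p = 0.1, the smallest possible, and 0.3), with dose and batch still joined. In the batch of the 80% tumors the only WT tumor had 39.3 score UMIs per 100000 UMIs, the lowest of all WT tumors, which ranged up to 82.6 in WT 2. After thinning the difference between doses was 2.81 points (−2.06 to 8.65, exact permutation p = 0.179).

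**Figure D5:**
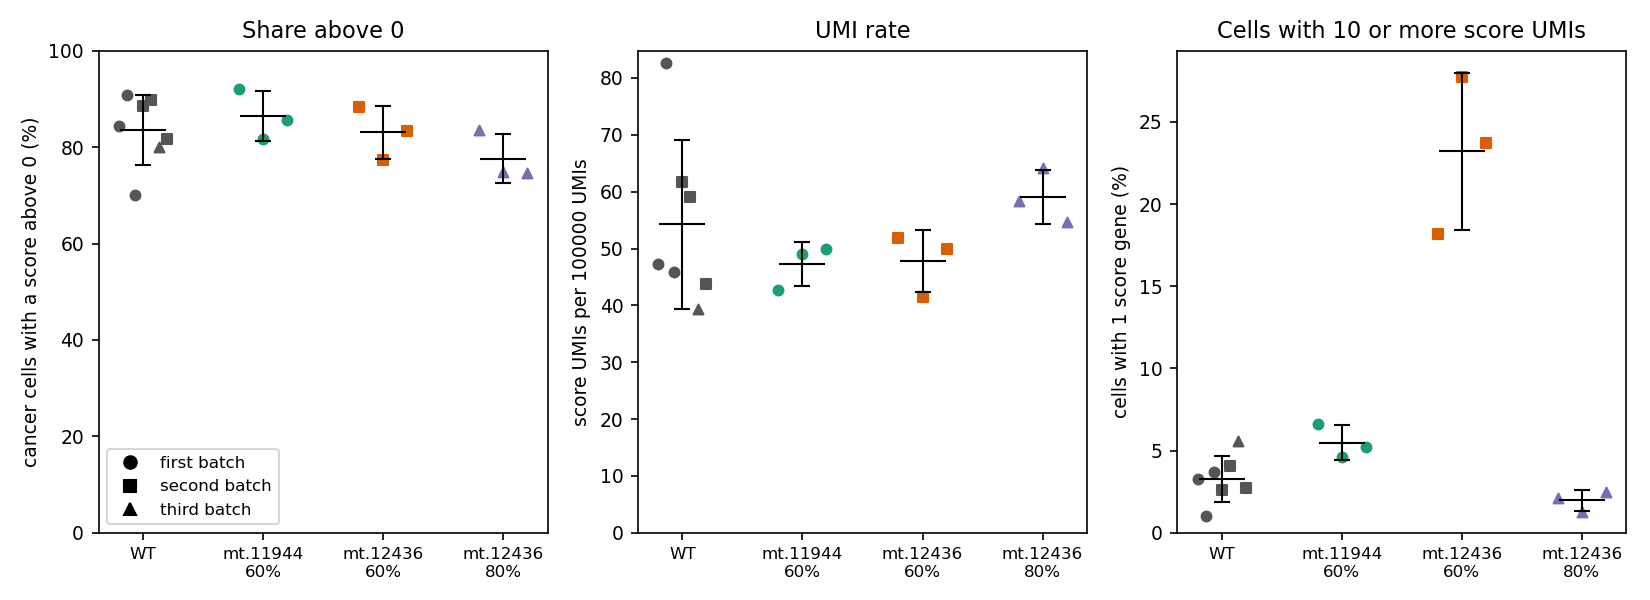
Cancer cells with a score above 0 (%, left), score UMIs per 100000 UMIs (middle) and, among cancer cells with 10 or more score UMIs, cells with a single score gene (%, right), a point per tumor with the batch as symbol, and mean with SD per group. Groups overlap in share above 0, whereas the 3 tumors of mt.12436 60% lie at 18.2% to 27.7% single-gene cells, above all others, which reach at most 6.64%.

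In the number of genes behind the score, mt.12436 60% lay farthest from the other groups. Since the UMIs of each score gene in a cell were recovered, though not the names of the genes, cancer cells with 10 or more score UMIs could be divided into those in which all of these UMIs came from 1 gene (single-gene cells) and the rest. This measure was added after the data were seen, so its p-values are not those of a planned test. In WT tumors single-gene cells made up at least 1.04%, a median of 3.26% and at most 5.6%. They made up 6.64%, 4.62% and 5.21% in mt.11944 60%, 18.2%, 27.7% and 23.7% in mt.12436 60%, and 2.11%, 1.28% and 2.50% in mt.12436 80%. Every tumor of mt.12436 60% was thus above every other tumor. Its mean of 23.2% ± 4.77 (n = 3) was 19.9 percentage points above the 3.28% ± 1.41 of WT (n = 7, 95% interval 15.5 to 24.0, exact permutation p = 0.00833, the smallest that 120 splits allow). Over all 35 tests in cancer cells the adjusted p = 0.139 of this exact permutation test did not pass the threshold of 0.05, nor did that of both 60% groups together against WT, 14.3% ± 10.2 (n = 6, exact permutation p = 0.00175, adjusted p = 0.0612). Within the batch of mt.12436 60%, against WT 4, 5 and 7, the difference was 20.1 points, with an exact permutation p = 0.1, the smallest that 20 splits allow. Within their own batches, mt.11944 60% differed from WT by 2.83 points (exact permutation p = 0.1, again the smallest possible). For mt.12436 80% the difference was −3.63, against 1 WT tumor.

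Divided by cluster or by score UMIs, with the cells of a group pooled over its tumors, mt.12436 60% stayed highest of the 4 groups. The order of the others varied. Single-gene cells were more frequent in mt.12436 60% than in WT in 11 of 11 cancer clusters, with 24.6% against 1.84% in cluster 11 and 20.2% against 1.53% in cluster 14. In cluster 27 the value for mt.12436 60% rests on 11 cells with 10 or more score UMIs, and in cluster 28 on 23 such cells against 14 in WT. Single-gene cells were also more frequent in mt.12436 60% than in mt.12436 80%, the group of the same edit at the higher share of edited genomes, in 11 of 11 clusters. In cluster 8 the value for mt.12436 80% rests on 19 cells. The clusters divide the cells of the same tumors and are not independent comparisons. Among cells with 20 or more score UMIs, 14.7% were single-gene cells in mt.12436 60%, 0.770% in WT, 3.92% in mt.11944 60% and 0.418% in mt.12436 80%, and among cells with 5 to 9, 40.4%, 13.2%, 15.7% and 13.4%. In cells with exactly 2 score UMIs both came from the same gene in 65.1% of cells in mt.12436 60%, 53.5% in WT, 53.2% in mt.11944 60% and 52.2% in mt.12436 80%. The leading gene of a cell with 10 or more score UMIs held a median of 84.9% ± 3.25 of them in mt.12436 60% (SD over 3 tumors), 67.0% ± 1.803 in WT, 74.1% ± 0.835 in mt.11944 60% and 64.1% ± 0.375 in mt.12436 80%. By this value the other mutant groups also lay outside the WT range of 65.2% to 69.6%. Tumors of mt.11944 60% were above it, at 73.3% to 75%, and those of mt.12436 80% below it, at 63.6% to 64.3%. Total score UMIs did not part the groups in this way, with 47.7 ± 5.47 per 100000 UMIs in mt.12436 60% against 54.2 ± 14.9 in WT (exact permutation p = 0.55). As the score adds up logarithms per gene, score UMIs of 1 gene give a lower score than as many spread over several genes at the same depth. The part of this in the mean score of a group was not tested. The mean score of mt.12436 60% was 5.61 ± 0.607, against 6.45 ± 0.248 in mt.11944 60%, with no overlap (exact permutation p = 0.1, the smallest possible), and 6.58 ± 0.998 in WT (p = 0.183). For single-gene cells, the difference from the WT tumors of the same batch was 20.1 points in mt.12436 60% and 2.83 in mt.11944 60%. The difference of these differences was 17.3 points (within-batch exact permutation p = 0.1, adjusted p = 0.5 over 5 measures). Labels were permuted inside each batch, so this p-value refers to no difference in either batch. It cannot decide whether the difference of mt.12436 60% exceeds that of mt.11944 60%.

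Across classes, 0 of 12 with at least 5 cells in every tumor changed their share above 0 between mutant and WT tumors (0% called, exact permutation with an adjusted p under 0.05). Without adjustment it was likewise 0 of 12 at p under 0.05, and both counts were 0 for the mean score, the rate and the thinned share. The 3 classes with the smallest p for the share above 0 were fibroblast-labelled cells, with 44.9% ± 6.30 in mutant and 51.9% ± 10.1 in WT tumors (difference −6.96, exact permutation p = 0.111, adjusted p = 0.91), DC, with 22.8% ± 10.6 and 26.6% ± 6.52 (difference −3.80, p = 0.444), and monocytes, with 19.3% ± 8.56 and 22.7% ± 8.86 (difference −3.36, p = 0.456). Over all cells the share above 0 was 44.4% ± 7.67 in mutant and 44.2% ± 9.41 in WT tumors (difference 0.193, −9.05 to 9.39, exact permutation p = 0.964). Of the 71603 positive cells, 50081 were cancer cells. The share over all cells thus depends on the number of cancer cells and their score, and also on positive cells of other classes.

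Monocytes and macrophages were also compared with the cancer cells of their tumor. Their rate was between 3.84 and 13.3 score UMIs per 100000 UMIs, and the score UMIs of cancer cells per 100000 UMIs of the tumor were set against it. Over the 16 tumors Pearson's r was 0.529 (permutation p = 0.0406) and Spearman's rho 0.0588 (permutation p = 0.831). Without mt.12436 80% 2 and WT 2, which lay farthest from the median of the latter, r was 0.0204 (n = 14, permutation p = 0.947). WT 2 was highest in both values, with a rate of 13.3 in monocytes and macrophages. In mt.12436 80% 2 that rate was 5.69, in the lower part of the range. Since r without WT 2 alone was not computed, the part of WT 2 in the relation was not tested. Within the first batch r was 0.666 (n = 6, exact permutation p = 0.211) and within the second −0.221 (n = 6, p = 0.622), and the third batch holds too few tumors. The relation was the only one of its kind that was computed. In myeloid cells with exactly 2 score UMIs both came from the same gene in 45.7% of cells in WT, 42.5% in mt.11944 60%, 51.8% in mt.12436 60% and 40.1% in mt.12436 80%.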

How the data were processed

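The deposited table held 1 line per cell. Its UMIs and detected genes per cell were deposited as counts, without normalization. The authors computed the epithelial score, which is a sum of log2 values over genes as found from its values, and a doublet score. Per the study's methods the authors mapped 3′ libraries with Cell Ranger to GRCm39, used Seurat, and discarded cells with fewer than 500 genes, more than 37000 UMIs or more than 5% mitochondrial counts. Their annotation, clusters, phases and CopyKAT calls were taken as deposited. The table's doublet column marks 0 cells as doublets, the rule behind it is not given in the sources used here, and no further filter was applied. The number of columns of per-sample values left unused was 0.

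Groups came from the labels and batches from the table. Shares are percent of cells. Thinning used the hypergeometric chance of keeping a score UMI among 2000 drawn. Tumors, not cells, were the replicates. Groups were compared by an exact two-sided permutation test of the difference of means, with 95% intervals by inversion, and phases and ploidy calls by an exact two-sided sign-flip permutation test within tumors, whose p-values for ploidy are not reported because the class labels rest on the score and the calls. The Benjamini-Hochberg procedure was applied, with a threshold of 0.05. All classes and cancer clusters were named, and in class comparisons those past the threshold or, with none, the 3 of smallest p. Members, lists and comparisons were chosen with earlier results of these data known. Thinning, rates, single-gene cells, comparisons inside clusters and the relation in myeloid cells were added after the data were seen. Scripts were tested on simulated data and run in Python 3.11.15, using scipy 1.17.1, numpy 2.4.6, numba 0.67.0, pandas 2.3.3 and matplotlib 3.10.9. Intervals of shares cover counting error only.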

Additional observations from a re-analysis of the deposited data

Results flagged for a closer look

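In 51 combinations of a class and a group of 4 to 10 tumors, 14 had a tumor far from the others in the share of cells above 0. Chance flags about 1 in 20 groups, but these combinations share tumors and some groups lie within others, so their count cannot be read against it. The first tumor of mt.11944 60% was the far one in 13 of them. In that tumor 38.5% of CD8 T cells were above 0 (next highest mutant tumor 16.2%), 48.9% of DC (26.8%), 40.9% of macrophages (20.8%), 40.5% of monocytes (23.1%), 29.7% of neutrophils (18.6%) and 34.8% of T cells (16.7%), each far both among all mutant tumors and among the 60% tumors. Of its NK cells 29.4% were above 0, against 13.1% in the next of the 60% tumors. Its monocytes and macrophages had a median of 6846.5 UMIs, and their thinned share was 15.3%. The remaining one was WT 2, in which 40.5% of CD4 T cells were above 0, against 20% in the next WT tumor. The part of depth in these values was not tested.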

How the results depend on the processing

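Of 347 alternative values, 306 were classed as the same. Where there was a p-value, this means the same direction and the same side of the threshold. Values of pooled cells have no p-value and had to keep their direction and lie within an SD of the main value. Counts of changed classes were 0 throughout and have no direction. Many of the values leave out 1 tumor at a time and are not independent. The differences between tumor groups in the share above 0 turned direction most often. For mutant against WT in cancer cells the difference was 0.618 standardised over depth deciles, 0.616 with the replicate block and 0.540 with cells of a group pooled. The mean score difference was −0.061 standardised over depth deciles. For 60% against WT it was −1.28 at 5000 to 10000 UMIs, −7.82 for cells above the median positive score, −1.47 after thinning and −6.72 as score UMIs per 100000 UMIs. For 80% against WT these were 0.347 (standardised), 0.113 (above the median), 1.34 (thinned) and 4.82 (rate). For 80% against 60% the exact permutation test passed 0.05 unadjusted with medians (−9.81), the replicate block (−7.13) and the rate (11.5), the last in the opposite direction, as were 7.94 above the median and 2.81 after thinning. Between mt.12436 60% and mt.11944 60% the rate differed by 0.470. For all cells, mutant against WT, the difference was −0.596 at 1000 or more genes, −0.574 above the median, −6.68 with the replicate block and −1.15 by rate. Single-gene cells of mt.12436 60% exceeded WT by 20.1 within batches, 28.4 at 5000 to 10000 UMIs and 20.5 with the replicate block, which all missed the threshold. Within batches and with the block, the number of splits did not allow a p under 0.05. Inside clusters S minus G1 was −0.48 by rate and G2M minus G1 was −3.16 by share. Aneuploid minus diploid in cancer cells, given without a test, was 5.19 at 5000 to 10000 UMIs, 2.86 standardised, 5.70 thinned and 0.893 thinned inside clusters, and in fibroblast-labelled cells 7.11 by rate inside clusters. For the other changes the cause was not tested.

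Leaving out 1 tumor at a time gave −3.47 to −0.0230 for mutant against WT, −0.62 (without WT 3) to −0.15 (without WT 2) for its mean score, −1.09 (without WT 3) to 2.65 for 60% against WT, −0.280 without mt.11944 60% 1, −8.92 to −4.46 for 80% against WT, with −8.23 past the threshold without WT 3, −10.1 to −5.62 for 80% against 60%, −1.70 to 2.49 over all cells and 17.7 to 22.4 for single-gene cells. It gave 10.8 to 12.2 for S, 12.99 to 14.7 for G2M, 36.2 to 39.9 for ploidy in cancer cells and 33.5 to 36.3 in fibroblast-labelled cells. The replicate numbers did not pair tumors, since same-numbered tumors had a median correlation of −0.0964 and 6 of 18 pairs were over 0.1. No within-batch value exists where groups share no batch. Groups of 3 tumors, few B cells, mast cells and basophils per tumor, and the uneven spread of erythroid-labelled cells limit what could be detected.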
